A study of Mus musculus with 13 samples.

Results

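The constitutive proteasome was followed through 46 genes, taken by symbol as all measured genes whose names begin with Psma, Psmb, Psmc, Psmd, Psme or Psmg, without the immunoproteasome subunits Psmb8, Psmb9 and Psmb10. They were 46 of the 19505 genes with a symbol on the array, and 44 of them were bright enough to be tested. Psmb5, the remaining catalytic subunit, was not among the gene symbols given for the rows of the array, and so was not analysed here. By role the 46 held 8 alpha ring and 7 beta ring subunits of the 20S core. They also held 6 ATPases and 11 other subunits of the 19S cap, with 3 assembly chaperones of the cap and 4 of the core. The rest were 5 activator genes, and 2 genes that share the prefix but have none of these roles. Those 2 were Psmc3ip, a meiotic recombination factor, and Psme3ip1, a partner of the Psme3 protein. The testis subunit Psma8 and the thymic subunit Psmb11 failed the brightness filter, which asked for a signal above the array's median on at least 4 arrays.

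The arrays measured total RNA from whole bone marrow of C57Bl/6J hosts irradiated with 7 Gy. All hosts had received marrow LSK cells, a fraction enriched in stem and progenitor cells, taken from Cas9 knock-in mice and transplanted 24 h after guide transduction. Marrow was taken at signs of leukemia or after 6 months. BRSST+sgEzh2 cells carried the guide combination that the submitters call BRSST together with a guide against Ezh2 (4 arrays), BRSST+sgLuc cells carried the same combination with the control guide sgLuc (5 arrays), and sgLuc cells carried the control guide alone (4 arrays). BRSST is not spelled out in the labels, the labels do not say which samples were leukemic, and surviving host cells are part of whole marrow. Whether every array had a mouse of its own is not stated, so the p-values take in the spread among arrays, part of which could be technical.

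The proteasome degrades proteins tagged with ubiquitin. Its barrel, the 20S core, is built of outer alpha rings, which gate the entry, and inner beta rings, whose subunits Psmb5, Psmb6 and Psmb7 carry the cutting sites. The 19S cap recognises ubiquitin chains, removes them, unfolds the protein with its ATPases and feeds it into the core. In immune cells, interferon induces replacement catalytic subunits and the Psme1 and Psme2 activator, and every blood lineage with high protein turnover, red cell precursors and plasma cells among them, relies on the complex.

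Promoters of 4 of the genes that rose in BRSST+sgLuc marrow are shown because the results turn on these genes and because their windows hold one of the motifs searched. The sequences are from RefSeq (GRCm38.p6) and run from 250 bases before to 50 bases after the start of the gene. In the first pair, Psmd9 (chr5:123227940-123228239, plus strand) and Psmb6 (chr11:70525107-70525406, plus strand), capitals mark the core of the antioxidant response element, TGACNNNGC, which transcription factors of the Nfe2l family bind. In the second pair, Psmg3 (chr5:139826845-139827144, minus strand) and Psmd6 (chr14:14120896-14121195, minus strand), capitals mark CCGGAAG, a site of ETS factors.
Psmd9: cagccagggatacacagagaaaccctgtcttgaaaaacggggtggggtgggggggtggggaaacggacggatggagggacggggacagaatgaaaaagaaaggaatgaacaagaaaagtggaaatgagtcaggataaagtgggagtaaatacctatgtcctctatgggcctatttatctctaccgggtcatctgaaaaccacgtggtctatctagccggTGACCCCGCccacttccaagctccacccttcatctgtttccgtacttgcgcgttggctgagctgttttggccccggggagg
Psmb6: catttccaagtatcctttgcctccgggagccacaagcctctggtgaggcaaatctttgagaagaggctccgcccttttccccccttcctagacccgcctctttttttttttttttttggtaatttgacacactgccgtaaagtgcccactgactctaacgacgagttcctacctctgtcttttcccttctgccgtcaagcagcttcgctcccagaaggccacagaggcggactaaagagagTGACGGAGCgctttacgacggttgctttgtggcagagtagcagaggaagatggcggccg
Psmg3: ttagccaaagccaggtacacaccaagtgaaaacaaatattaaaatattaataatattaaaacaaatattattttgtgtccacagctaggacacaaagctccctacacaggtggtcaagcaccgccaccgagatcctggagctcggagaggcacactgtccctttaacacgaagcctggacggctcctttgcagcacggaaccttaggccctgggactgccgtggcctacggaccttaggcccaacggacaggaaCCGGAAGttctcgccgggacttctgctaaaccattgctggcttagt
Psmd6: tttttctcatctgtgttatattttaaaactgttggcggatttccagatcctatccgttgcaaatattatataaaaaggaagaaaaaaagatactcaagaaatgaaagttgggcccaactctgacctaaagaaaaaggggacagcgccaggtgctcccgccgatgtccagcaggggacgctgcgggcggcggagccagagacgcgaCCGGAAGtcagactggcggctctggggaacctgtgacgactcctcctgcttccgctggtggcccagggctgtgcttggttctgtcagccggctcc

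Of the 46 genes, 38 matched the RefSeq table, with 42 promoters. On either strand CCGGAAG occurred in 17 of the 42 (40.5%), in 17.3% of 10942 promoters of all genes tested, and in 8.86% of all 32851 promoters. TGACNNNGC occurred in 5 of 42 (11.9%), those of Psmb6, Psmc6, Psmd12, Psmd9 and Psme4, against 14.2% and 12.4%. Of these 5 genes the first 4 are among the 16 that rose in BRSST+sgLuc marrow, described next. By promoter, TGACNNNGC lay in 4 of 14 of the genes that rose and in 1 of 27 of the other genes tested. Psmb1, Psmb2 and Psmb7, which also rose, had no matching promoter. These counts are small, and a link between the motif and the rises was not tested. The ETS site lay in 5 of 14 promoters of the genes that rose and in 12 of 27 promoters of the other genes tested. The GC box GGGCGG (57.1%, against 59.7% and 35.7%) and CCAAT (35.7%, against 37.7% and 37.4%) had shares near those of the genes tested. Fewer promoters held CACGTG (9.52%, against 9.89% and 7.15%) or TATAAA (7.14%, against 7.71% and 13.6%). The site of nuclear respiratory factor 1 lay in 2 of 42 (4.76%, in Psma2 and Psmg1), against 2.00% and 0.971%. Promoters of the proteasome genes had a mean GC content of 58.3%, and those of all genes tested 60.2%. These matches are descriptions, and no overlap between the motifs was removed.

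**Figure D1:**
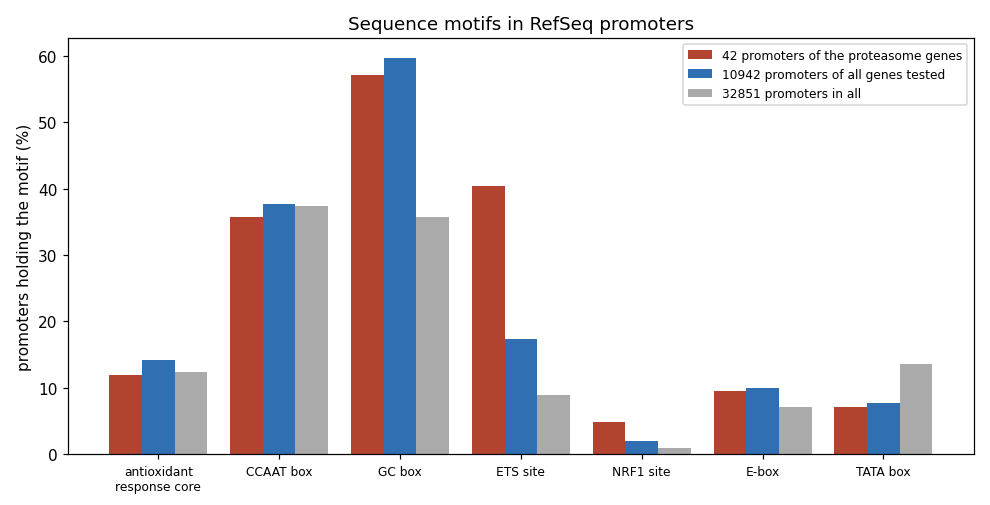
Bars give the percentage of promoters that hold each motif on either strand, for the 42 promoters of the proteasome genes, 10942 promoters of all genes tested and 32851 promoters in all. The ETS site stands at 40.5%, 17.3% and 8.86%, and the site of nuclear respiratory factor 1 at 4.76%, 2.00% and 0.971%.

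The arrays themselves were similar in scale, with medians of log2 7.19 to 7.32. Ezh2, the target of the added guide, averaged log2 8.78 ± 0.50 with that guide (BRSST+sgEzh2; SD, n = 4), 9.82 ± 0.50 on BRSST+sgLuc arrays (n = 5) and 10.35 ± 0.28 on sgLuc arrays (n = 4). Ezh2 was thus lower in BRSST+sgEzh2 than in sgLuc marrow by limma's test (-1.57 ± 0.28, adjusted p = 0.00306), and against BRSST+sgLuc it did not pass (-1.05 ± 0.26, 0.0808). The Y-linked genes Uty and Kdm5d were high on 2 of 4 BRSST+sgEzh2, 2 of 5 BRSST+sgLuc and 4 of 4 sgLuc arrays. This class was thus unevenly spread in both comparisons with sgLuc, which limits them. All 5 general haematopoietic genes (Ptprc, Spi1, Laptm5, Coro1a and Itgam) lay above the median on all 13 arrays, as did all 9 measured neutrophil genes. Code numbers in the sample descriptions run on without a gap through both BRSST groups and jump ahead for sgLuc. Any batch of arrays that followed these numbers and the presence of the BRSST combination cannot be told apart.

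The comparison for the BRSST combination was that of BRSST+sgLuc with sgLuc marrow, under the limit on batches just given. Proteasome mRNA was higher in BRSST+sgLuc marrow for 16 genes, in the core, the cap and their chaperones. Of the 44 genes tested these 16 (36.4%) rose and 0 fell, where 22.5% of all genes passed, 10.8% by rising and 11.7% by falling. The tests were limma's, adjusted by Benjamini-Hochberg over 10601 genes at a threshold of 0.05. The median difference of the 44 genes was log2 0.24, against 0.0092 for all genes tested, and 37 of the 44 were above 0. Signals of the groups did not overlap for those 16 genes and for no other of the 44, or 36.4%, where 9.09% of all genes were higher and 9.82% lower without overlap. The rises were small, between log2 0.26 for Psmb1 and 0.995 for Psmd9. In RNA of whole marrow, more or fewer cells of a type and more or less RNA per cell cannot be told apart.

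In the 20S core all 6 beta ring subunits tested rose, and 3 of 7 alpha ring subunits tested. Psmb7 (Entrez 19177), which cuts after basic residues, had log2 signals of 11.37, 11.30, 11.30, 11.12 and 11.13 on BRSST+sgLuc arrays, against 10.68, 10.66, 10.69 and 10.81 on sgLuc arrays. Every BRSST+sgLuc array lay above every sgLuc array, and the difference was 0.54 ± 0.099 (SE, n = 5 and 4), or 1.45-fold (limma adjusted p = 0.00223). Psmb6 (Entrez 19175), which cuts after acidic residues, had 11.59, 11.69, 11.49, 11.60 and 11.19 on BRSST+sgLuc arrays, against 10.91, 10.96, 10.94 and 11.15 on sgLuc arrays. BRSST+sgLuc replicate 5 came close to the highest sgLuc array, and the difference was 0.52 ± 0.11, or 1.43-fold (limma adjusted p = 0.00501). The structural beta subunits Psmb3 (0.40 ± 0.094), Psmb4 (0.32 ± 0.086), Psmb2 (0.31 ± 0.099) and Psmb1 (0.26 ± 0.082) rose as well, with limma adjusted p from 0.00845 to 0.0371.

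Among the alpha subunits Psma2 (Entrez 19166) had 12.24, 12.23, 12.07, 12.15 and 12.01 on BRSST+sgLuc arrays, against 11.63, 11.77, 11.55 and 11.93 on sgLuc arrays. Replicate 4 of sgLuc came close to the lowest BRSST+sgLuc array without reaching it, and the difference was 0.42 ± 0.10, or 1.34-fold (limma adjusted p = 0.00976). Psma5 rose by 0.39 ± 0.11 and Psma6 by 0.34 ± 0.094 (limma adjusted p = 0.0174 and 0.0181). Psma1, Psma3, Psma4 and Psma7 were at 0.14 to 0.26 and did not pass (limma adjusted p from 0.11 to 0.307). The untested Psma8 stayed between 4.89 and 5.86 on all 13 arrays, below each array's median, and Psmb11 between 5.73 and 6.26.

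The chaperones that build the complex held the 3 largest rises. Psmd9 (Entrez 67151), a chaperone of the ATPase ring of the cap, had 10.39, 9.77, 10.02, 10.69 and 9.96 on BRSST+sgLuc arrays, against 9.10, 9.21, 9.12 and 9.25 on sgLuc arrays. It was the gene with the widest gap between the groups, at 0.995 ± 0.16 or 1.99-fold (limma adjusted p = 0.000874), and BRSST+sgLuc replicates 1 and 4 were its highest arrays. Psmg4 (Entrez 69666), which with Psmg3 forms a chaperone of the alpha ring, had 10.34, 10.69, 10.58, 10.27 and 10.22 on BRSST+sgLuc arrays, against 9.63, 9.74, 9.62 and 9.78 on sgLuc arrays. The difference was 0.73 ± 0.11, or 1.66-fold (limma adjusted p = 0.000567), with tight sgLuc values. Its partner Psmg3 (Entrez 66506) had 9.68, 9.95, 9.89, 9.58 and 9.31 on BRSST+sgLuc arrays, against 9.07, 9.15, 8.94 and 9.28 on sgLuc arrays. Replicate 5 of BRSST+sgLuc nearly met replicate 4 of sgLuc, and the difference was 0.57 ± 0.14, or 1.49-fold (limma adjusted p = 0.0106). Psmg2, of the other alpha ring chaperone pair, was at 0.66 ± 0.27 and did not pass (limma adjusted p = 0.0914), nor did its partner Psmg1 at 0.21 ± 0.15 (0.337). The cap chaperones Psmd10 and Psmd5 were at 0.21 ± 0.12 and 0.035 ± 0.20 (0.227 and 0.926).

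In the 19S cap 4 of 17 subunits rose. Psmd6 (Entrez 66413), a subunit of the lid, had 11.16, 11.15, 10.89, 10.90 and 10.73 on BRSST+sgLuc arrays, against 10.45, 10.44, 10.27 and 10.60 on sgLuc arrays. The groups did not meet, and the difference was 0.52 ± 0.13, or 1.44-fold (limma adjusted p = 0.0116). Psmd14 (Entrez 59029), the enzyme that removes ubiquitin chains at the cap, had 8.71, 8.70, 8.62, 8.70 and 8.89 on BRSST+sgLuc arrays, against 8.30, 8.22, 8.22 and 8.36 on sgLuc arrays. Both groups were tight, and the difference was 0.45 ± 0.098, or 1.36-fold (limma adjusted p = 0.00583). The lid subunit Psmd12 rose by 0.37 ± 0.11 and the ATPase Psmc6 by 0.35 ± 0.10 (limma adjusted p = 0.0289 and 0.0259). The other 5 ATPases lay between -0.063 for Psmc2 and 0.35 for Psmc1, whose SE was 0.15. Psmd1 and Psmd2, the large scaffold subunits of the cap, were at -0.19 ± 0.20 and -0.069 ± 0.13, and Psmd4, a ubiquitin receptor, at 0.18 ± 0.11 (limma adjusted p = 0.552, 0.76 and 0.236).

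No activator gene passed. Psme1 (Entrez 19186), the alpha subunit of the interferon-induced activator, had 12.56, 12.65, 12.48, 12.42 and 12.36 on BRSST+sgLuc arrays, against 12.46, 12.33, 12.21 and 12.42 on sgLuc arrays. These overlapped, with a difference of 0.14 ± 0.097 (limma adjusted p = 0.343). Its partner Psme2 (Entrez 19188) had 11.68, 12.24, 11.83, 11.55 and 11.32 on BRSST+sgLuc arrays, against 11.94, 11.90, 11.88 and 12.05 on sgLuc arrays. All BRSST+sgLuc arrays but replicate 2 lay below the sgLuc range, and the difference was -0.22 ± 0.15 (limma adjusted p = 0.331). Psme2b, a copy of Psme2 whose probes may share its signal, followed the same order of arrays at -0.37 ± 0.20 (0.207). The nuclear activators Psme3 and Psme4 were at 0.13 ± 0.11 and -0.17 ± 0.27 (0.452 and 0.717). The immunoproteasome subunits Psmb8, Psmb9 and Psmb10 were at 0.089 ± 0.16, -0.057 ± 0.16 and 0.19 ± 0.19 (limma adjusted p from 0.532 to 0.844).

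**Figure D2:**
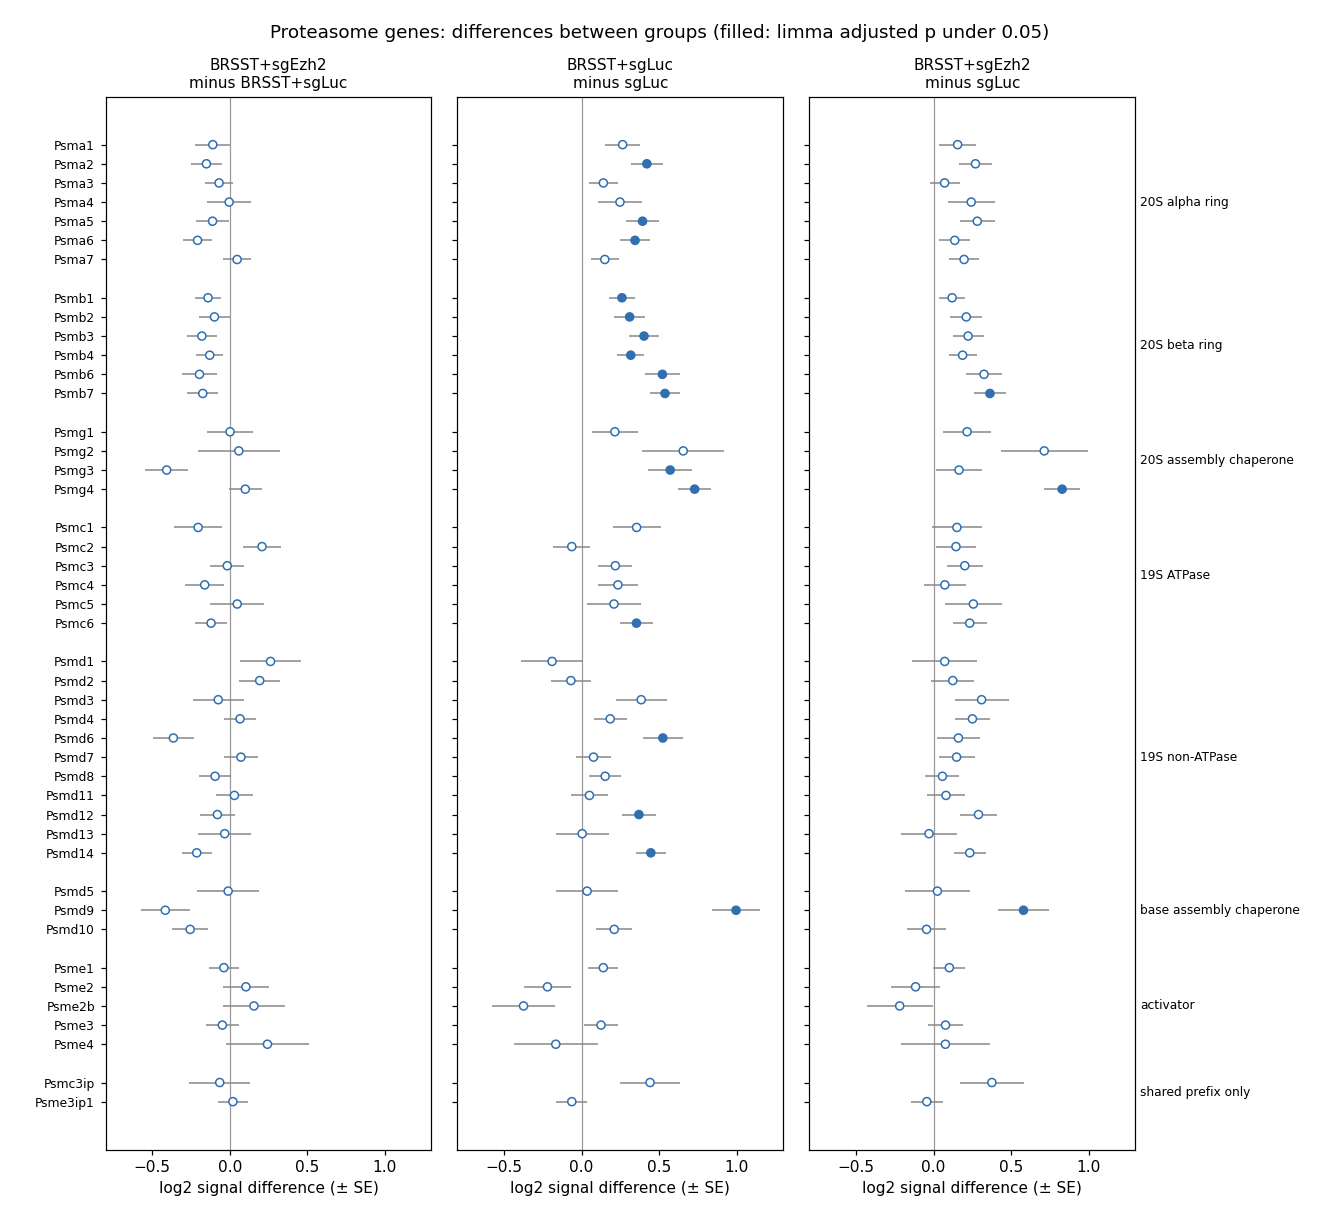
Points give the difference in log2 signal between groups for each of the 44 genes tested, grouped by role, with bars of 1 SE; filled points passed limma's test. In the middle panel the 6 beta ring subunits tested are all filled and to the right of 0 while the 5 activators are open, and in the left panel no point is filled.

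Cell type markers moved in the same comparison. Of 6 tested erythroid markers 4 rose (Rhag, a membrane protein of red cells, the carbonic anhydrases Car1 and Car2, and Ank1, of the red cell skeleton), and the summed linear signal of the 10 on the array was 3024 to 6878 on BRSST+sgLuc arrays and 1555 to 1981 on sgLuc arrays. Early myeloid granule genes rose in 3 of 6 cases (35563 to 44079, against 31240 to 33961), while B lineage genes fell in 9 of 10 (1504 to 7247, against 8551 to 21959). Plasma cell genes fell in 3 of 5 cases (3392 to 5193, against 7868 to 9419) and neutrophil genes in 4 of 9 (57864 to 63849, against 69697 to 76353). T and NK cell genes fell in 7 of 9 cases (1693 to 4490, against 4674 to 6374), monocyte and macrophage genes in 5 of 9 (7502 to 13345, against 15708 to 16544) and dendritic cell genes in 3 of 6 (1259 to 6016, against 7139 to 9086). Basophil, mast cell and eosinophil genes fell in 4 of 6 cases (2471 to 3748, against 12737 to 16171), and of 3 megakaryocyte genes 0 passed. Of 11 proliferation genes 0 rose and 1 fell, and their sums overlapped (18427 to 29213, against 22600 to 26673). Of the 5 general haematopoietic genes 2 fell (19334 to 22806.5, against 27274 to 28593). The part of these markers in the proteasome differences was not tested.

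In fits that left out 1 array, 11 genes rose without sgLuc replicate 1 or 3, and 20 rose without BRSST+sgLuc replicate 5. Without BRSST+sgLuc replicate 2 there were 18 rises and 2 falls, those of Psme2 and Psme2b. Without BRSST+sgLuc replicates 2 and 5 together it was 23 rises and 1 fall, that of Psme2b. No share over all genes is given for that fit, so its counts are not read as a stronger result for the proteasome genes. With array quality weights it was 27 and 3, or 61.4% and 6.82%, where 22.7% of all genes rose and 23.3% fell. Of all 10601 genes tested, 1481 passed without sgLuc replicate 1, the lowest count of the 13 fits that left out 1 array. The highest was 2839, without BRSST+sgLuc replicate 5. The proteasome counts of these fits thus stand beside a total over all genes that moved as well. Psma2, Psmb3, Psmb6, Psmb7, Psmd6, Psmd9, Psmd14, Psmg3 and Psmg4 passed in all 13 fits that left out 1 array, Psmb2 in 6 and Psmb1 in 7. With the Y-linked class as a block, Psma2, Psmb6, Psmb7, Psmd6, Psmd9, Psmd14, Psmg3 and Psmg4 passed as well. No count of the proteasome genes is given for that fit.

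Within BRSST+sgLuc the parts of the complex did not move together on every array. Measured as the median deviation from each gene's mean over the 13 arrays, the 13 ring subunits stood at 0.20, 0.27, 0.12, 0.11 and -0.082 on replicates 1 to 5. The 17 cap subunits stood at 0.19, -0.18, 0.24, 0.17 and -0.068 on the same arrays. On replicate 2 the core was thus at its highest of the 5 and the cap at its lowest. That array also had the highest signals of the group for Psme2 (12.24), Psmb8 (11.90), Psmb9 (12.19) and Psmb10 (10.29), and its lowest for the cap scaffold Psmd1, at 8.95 where the other 12 arrays had 9.73 or more. On sgLuc arrays both parts were below 0, at -0.30 to -0.11 for the rings and -0.21 to -0.020 for the cap. After group means were removed, pairs of ring subunits had a median correlation of 0.57 over the 13 arrays, pairs of cap subunits 0.39, and pairs of 1 ring and 1 cap subunit 0.19, while pairs of all genes tested had -0.0040. Genes on an array share its RNA and its normalization, so these correlations are descriptions.

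**Figure D3:**
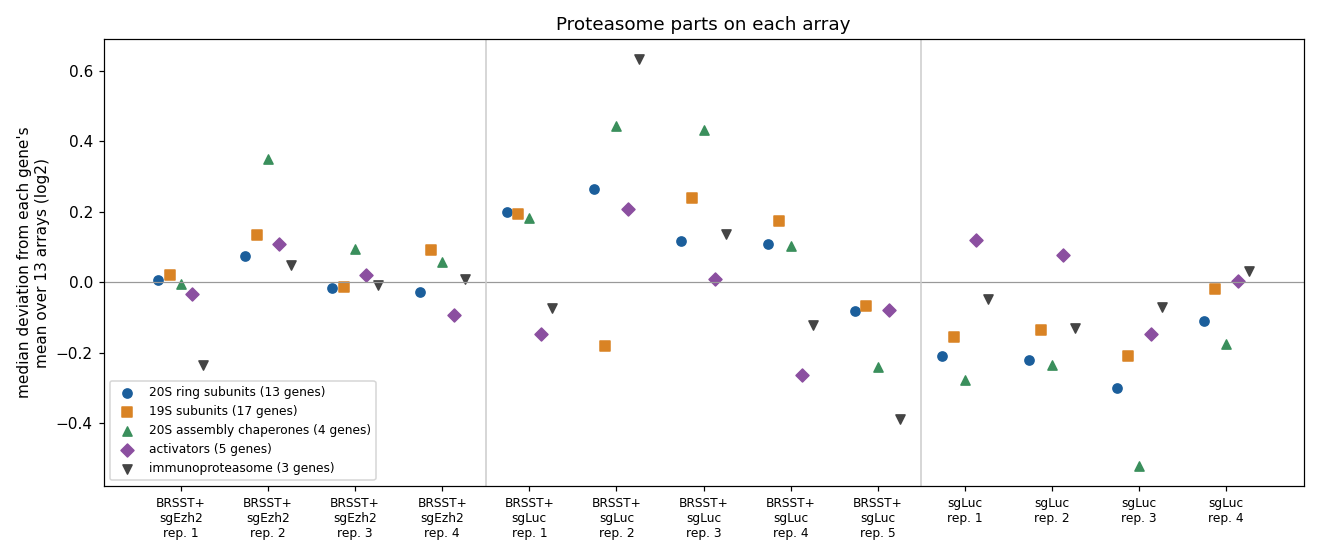
Each symbol is the median, over the genes of a proteasome part, of the deviation in log2 signal from each gene's mean over 13 arrays, for every array of the 3 groups. On BRSST+sgLuc replicate 2 the ring subunits (0.27) and the cap subunits (-0.18) lie far apart, and on all 4 sgLuc arrays both lie below 0.

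BRSST+sgEzh2 marrow, compared with sgLuc marrow, had 3 rises and 0 falls among the 44 genes, or 6.82%, where 9.37% of all genes passed, 5.51% by rising and 3.86% by falling. The comparison uses the same sgLuc arrays as the one above, so the differences are not independent of it. Psmg4 had 10.48, 10.52, 10.58 and 10.52 on BRSST+sgEzh2 arrays, against 9.63, 9.74, 9.62 and 9.78 on sgLuc arrays. This alpha ring chaperone had the widest difference of the 44, at 0.83 ± 0.11 or 1.78-fold (limma adjusted p = 0.000449), and passed in all 13 fits that left out 1 array. Psmd9 had 9.81, 9.76, 9.59 and 9.84 on BRSST+sgEzh2 arrays, against 9.10 to 9.25 on sgLuc arrays, a difference of 0.58 ± 0.17 or 1.49-fold (0.0427). Psmb7 had 11.03, 11.26, 10.89 and 11.11, all above the sgLuc highest of 10.81, with a difference of 0.36 ± 0.10 or 1.29-fold (0.044). These calls were close to the threshold. That of Psmd9 was lost without any 1 BRSST+sgEzh2 or sgLuc array, with adjusted p of up to 0.116. That of Psmb7 was lost without any of 9 arrays, with adjusted p of up to 0.141. It was also lost with the Y-linked class as a block (limma adjusted p = 0.0504).

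Most of the other differences from sgLuc were small and above 0 in BRSST+sgEzh2 marrow. The median of the 44 genes was 0.16, against 0.023 for all genes tested, and 39 were above 0. For 13 genes (29.5%) the BRSST+sgEzh2 arrays lay above all sgLuc arrays, where 14.2% of all genes did so. Psme2b lay below them without overlap (1 gene, where 9.06% of all genes did). Psmb6, with 11.27, 11.44, 11.30 and 11.26 on BRSST+sgEzh2 arrays, was among them at 0.33 ± 0.12 (limma adjusted p = 0.0989). Of the 13 fits that left out 1 array it passed in 1, that without BRSST+sgLuc replicate 5 (limma adjusted p = 0.039). In the other 12 it did not pass, with limma adjusted p of up to 0.242. Psma2 had 11.90, 12.03, 11.95 and 12.08 and overlapped sgLuc (0.27 ± 0.11, adjusted p = 0.135). Psmd14 (8.35, 8.43, 8.54 and 8.70), Psmd6 (10.55, 10.85, 10.30 and 10.70) and Psmg3 (9.27, 9.54, 9.16 and 9.13) overlapped it too, at 0.23 ± 0.10, 0.16 ± 0.14 and 0.16 ± 0.15. The lid subunit Psmd13 was at -0.029 ± 0.18. Psme1 (12.41, 12.60, 12.39 and 12.42) was at 0.10 ± 0.10 and Psme2 (11.81, 11.93, 11.84 and 11.73) at -0.12 ± 0.16, both overlapping sgLuc. Of the erythroid markers 0 rose and 0 fell here, with summed signals of 1388 to 2558 on BRSST+sgEzh2 arrays and 1555 to 1981 on sgLuc arrays. Early myeloid genes rose in 2 of 6 cases (36840 to 42832, against 31240 to 33961). Falls were called for 4 of 6 basophil, mast cell and eosinophil genes (3277 to 4858, against 12737 to 16171), 3 of 5 plasma cell genes (3644 to 4672, against 7868 to 9419) and 3 of 6 dendritic cell genes (891 to 4601, against 7139 to 9086). Falls were also called for 2 of 10 B lineage genes, 2 of 5 general haematopoietic genes and 1 of 9 in each of the T and NK, neutrophil and monocyte lists. The part of these markers was not tested.

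**Figure D4:**
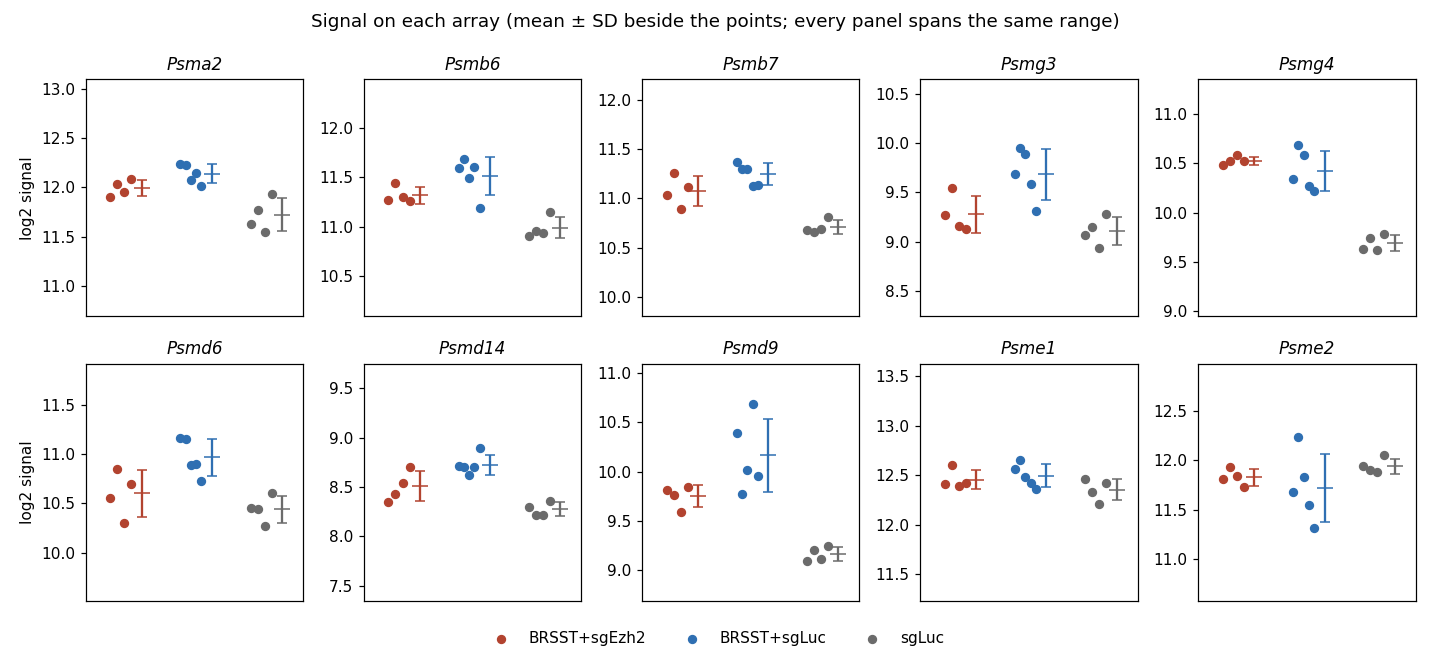
Points give the log2 signal on each array for 10 of the 12 genes whose values by array are listed (Psma6 and Psmb1 are not drawn), with the group mean and SD beside them; colours mark the 3 groups, with BRSST+sgEzh2 on the left and sgLuc on the right. For Psmg4 both BRSST groups lie at 10.22 or above and all sgLuc arrays at 9.78 or below, while Psme1 and Psme2 overlap.

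Between BRSST+sgEzh2 and BRSST+sgLuc marrow, the comparison for the added Ezh2 guide, 0 of 44 genes passed limma's test, where 0.783% of all genes did, 0.67% by rising and 0.113% by falling. At an unadjusted p under 0.05 there were 6 (13.6%), near the 13.9% of all genes. With array quality weights 4 fell (9.09%), where 3.25% of all genes fell and 6.55% rose. The median difference was -0.067, against 0.013 for all genes tested, and 29 of the 44 were below 0. The genes with the smallest p were Psmg3 at -0.41 ± 0.14 (limma adjusted p = 0.21), Psmd6 at -0.36 ± 0.13 (0.231) and Psmd9 at -0.42 ± 0.16 (0.252). Each of these overlapped between the groups in the values given above, and each was lower under array quality weights (adjusted p of 0.0426, 0.027 and 0.01). For Psma6 and Psmb1 the BRSST+sgEzh2 arrays lay below all BRSST+sgLuc arrays, or 4.55% of the 44 genes, where 1.01% of all genes did so. No gene was higher without overlap, where 2.52% of all genes were. The values of Psma6 and Psmb1 are given here because of this count, after they had been seen. Psmb1, a structural beta subunit, was tight in both groups, with 12.36, 12.35, 12.38 and 12.35 in BRSST+sgEzh2 and 12.53, 12.55, 12.46, 12.49 and 12.47 in BRSST+sgLuc (-0.14 ± 0.082, limma adjusted p = 0.48). Psma6 had 12.18, 12.23, 11.93 and 12.14 in BRSST+sgEzh2 and 12.39, 12.36, 12.32, 12.23 and 12.32 in BRSST+sgLuc (-0.21 ± 0.094, adjusted p = 0.344). Of 6 erythroid markers 0 passed, with a median of -1.05 and sums of 1388 to 2558 in BRSST+sgEzh2 and 3024 to 6878 in BRSST+sgLuc. Of 9 monocyte and macrophage genes 1 rose, with 8 above 0 and a median of 0.63, and 1 of 6 basophil, mast cell and eosinophil genes rose. No gene passed among 10 B lineage genes, all above 0 with a median of 0.83, or among 9 T and NK cell genes, of which 8 were above 0 with a median of 1.22. Their part in these differences was not tested.

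The spread between arrays was widest in BRSST+sgLuc marrow. The median SD of the 44 genes was 0.11 over BRSST+sgEzh2 arrays, 0.19 over the 5 BRSST+sgLuc arrays and 0.11 over sgLuc arrays, set beside 0.19, 0.25 and 0.15 for all genes tested. Psmb1 had the smallest SD in both BRSST groups, at 0.016 and 0.041. The largest SD was that of Psme4 in BRSST+sgEzh2 (0.48) and sgLuc (0.54), and of Psme2b in BRSST+sgLuc (0.51).

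Of 37 tested genes that work with the proteasome, 9 (24.3%) passed in BRSST+sgLuc against sgLuc marrow, near the 22.5% of all genes. Of 10 tested genes for further proteasome parts, binding proteins and assembly factors, 4 rose and 1 fell. Zfand2a, a proteasome adaptor induced by arsenite, rose by 0.99 ± 0.22, Psmf1, the inhibitor PI31, by 0.60 ± 0.13, and Zfand5, which activates the proteasome, by 0.60 ± 0.12. Ube3c, a ubiquitin ligase on the proteasome, fell by 0.61 ± 0.16, and Uchl5, a deubiquitinase of the cap named after its values were seen, rose by 0.49 ± 0.12. Adjusted p from limma for these 5 lay between 0.00336 and 0.015. Of 13 genes for transcriptional control and oxidative stress 1 rose and 1 fell. Gclm, of glutathione synthesis, rose by 0.83 ± 0.28 (limma adjusted p = 0.0469), close to the threshold. Its groups overlapped, with an SD of 0.71 in BRSST+sgLuc. The lowest BRSST+sgLuc array, at 8.29, lay below the sgLuc range of 8.56 to 8.87. Ogt, which attaches sugar to nuclear proteins, fell by 1.10 ± 0.14 (limma adjusted p = 0.000213). Nfe2l1, the factor that raises proteasome genes when the proteasome is inhibited, was at -0.19 ± 0.125 (adjusted p = 0.322) and is named for that role, after its values were seen. Of 14 ubiquitin and delivery genes 1 rose and 1 fell. Ufd1, a cofactor of the unfoldase Vcp, rose by 0.57 ± 0.11, and Uba6, another ubiquitin-activating enzyme, fell by 1.04 ± 0.15 (adjusted p of 0.00305 and 0.000569).

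In BRSST+sgEzh2 against sgLuc marrow 3 of the 37 genes (8.11%) passed, where 9.37% of all genes did. In the first of these lists 1 gene rose, Zfand5 by 0.46 ± 0.13 (limma adjusted p = 0.0359), and 1 gene fell in each of the other lists. Ogt fell by 0.52 ± 0.15 (0.0387) and Uba6 by 0.92 ± 0.16 (0.00308). Between BRSST+sgEzh2 and BRSST+sgLuc 0 of these 37 genes passed limma's test, where 0.783% of all genes did, and 7 (18.9%) had an unadjusted p under 0.05, where 13.9% of all genes did. The genes with the smallest p in each list did not pass. Ogt was at 0.57 ± 0.14 (adjusted p = 0.0705), Zfand2a at -0.56 ± 0.22, Ube3c at 0.40 ± 0.16, Hsf2, a heat shock factor, at 0.62 ± 0.25, Ubqln4, a ubiquitin shuttle, at 0.50 ± 0.21, and Ufd1 at -0.22 ± 0.11 (adjusted p from 0.261 to 0.406).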

How the data were processed

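The deposited table holds log2 signals of Affymetrix arrays; per the submitters' processing notes R 3.5.01 and the oligo package were used, while no source used here gives the background correction or the normalization. Per the labels' protocols, 2 ng of RNA was amplified with the Pico kit over 10 PCR cycles. A single gene symbol was given for 19572 of the 22203 rows, several for 0 and none for 2631, and 55 of the 19505 symbols had several rows, of which the row with the highest mean was kept. All 46 Entrez IDs of the proteasome genes matched RefSeq.

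Testing was limited to the 10601 genes whose signal exceeded the array's median on 4 or more arrays. The 3 groups of 13 arrays were fitted together with limma 3.58.1 (lmFit and eBayes) in R 4.3.3, without covariates, and p-values were adjusted by Benjamini-Hochberg over all genes tested, with a threshold of 0.05. The procedure was tested on simulated data. Errors of differences are standard errors. The number of arrays limits the precision. Values by array are given for the catalytic subunits Psmb6 and Psmb7, for Psme1 and Psme2, and per comparison for the 8 genes with the largest absolute difference in each direction among those that passed, and, with no gene passing, for the 3 of lowest p. Of each other pathway list, up to 4 that passed are named, or the 2 of lowest p; exceptions are stated. The members and lists were chosen with earlier results of these data known. Alternatives covered the filter, normalization, array weights, blocks, the groups fitted, the threshold and each array in turn.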

Additional observations from a re-analysis of the deposited data

Results flagged for a closer look

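Psme1, a subunit of the interferon-induced activator, had a log2 signal of 12.6 on BRSST+sgEzh2 replicate 2, far above the other 3 arrays of its group, which had 12.39 to 12.42. It was the only such array among 33 checks, of which chance gives about 1 in 20. These covered each group for 10 genes and for the median deviation of the 44 genes tested.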

How the results depend on the processing

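Each proteasome gene chosen by threshold or lowest p for its values by array kept the sign of that difference under every alternative run. Psmb6 and Psmb7 did so in every comparison. Some smaller differences changed sign. Without BRSST+sgLuc replicates 2 and 5, Psmd1 and Psmc2 were at 0.049 and 0.078 in BRSST+sgLuc against sgLuc marrow. The fit reported had -0.19 and -0.063. Counts of calls were highest under array quality weights, where BRSST+sgEzh2 against BRSST+sgLuc gave 4 proteasome genes (all lower, 0 in the fit reported) and 1039 genes in all. That comparison called 83 of all genes as reported, 128 with no filter, 36 with a stricter filter, 55 with medians set equal, 28 with the replicate block, 17 with only its 2 groups, 170 with the Y-linked class as a block, 143 without BRSST+sgLuc replicates 2 and 5, 18 at a threshold of 0.01, and 22 to 377 when 1 array was left out. BRSST+sgLuc against sgLuc called 16 proteasome genes, 30 with array weights, 7 at 0.01 and 11 to 20 leaving out 1 array, and 2389 of all genes, 4879 with weights, 1102 at 0.01 and 1481 to 2839 leaving out 1 array. BRSST+sgEzh2 against sgLuc called 3 proteasome genes, 1 with no filter, 1 with medians set equal, 12 with weights, 5 without BRSST+sgLuc replicates 2 and 5, 1 at 0.01 and 1 to 4 leaving out 1 array, and 993 of all genes, 2976 with weights, 1822 with only its 2 groups, 1739 without BRSST+sgLuc replicates 2 and 5, 398 at 0.01 and 519 to 1344 leaving out 1 array. The cause was not tested. With the replicate block the proteasome counts were 0, 16 and 2. Arrays with the same number had correlations of -0.18 to 0.19, and others -0.32 to 0.36. The values for the same number lay within the range of the others, which shows no pairing but cannot exclude one. Few arrays per group and whole marrow limit what small differences can show.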
